A study of Mus musculus with 48 samples.

Results

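Regulatory T cells (Tregs) and conventional CD4 T cells (Tcons) from the spleens of the same mice were compared by bulk RNA-seq. The comparison used the mice that received PBS in place of IL-2 and for which both cell fractions were sequenced, which gave 4 mice and 8 of the 48 libraries of the series. Of these C57BL/6 female mice, 8-12 weeks old, 2 were given an isotype control antibody and 2 a blocking antibody to MHC class II, through which antigen is shown to CD4 T cells. Each antibody was injected intraperitoneally at 500 µg per dose, on day -1 and on day 0, PBS followed on day 0, and the spleen was taken on day 4. CD4 T cells were passed over a magnetic CD25 selection step, in which the bound cells were collected as Tregs and the flow-through as Tcons, so the fractions were defined by surface CD25 and not by Foxp3. The authors checked purity afterwards by staining small aliquots for Foxp3, and report a high positive share in most samples. Every mouse was processed on its own, and the Treg and the Tcon library of a mouse form a pair.

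Tregs are the CD4 T cells that restrain other immune cells, and their identity depends on the transcription factor Foxp3. They carry a high level of CD25, the alpha chain of the IL-2 receptor, make little IL-2 themselves and depend on IL-2 from their neighbours. The CD25-negative CD4 T cells of a resting spleen are mainly naive cells that recirculate between lymphoid organs, together with memory and helper cells.

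The Treg libraries held 20.18 to 34.58 M expected counts and the Tcon libraries 37.9 to 41.37 M, so that 1 CPM (the count scaled to library size, in counts per M) stood for 20.2 counts in the smallest library. CPM values below were scaled with TMM, and groups of 4 values are given in the order isotype mouse 1, isotype mouse 2, MHC II block mouse 1 and MHC II block mouse 2. In a principal component analysis of the 8 libraries, the first component, with 65% of the variance, separated Tregs from Tcons, and the second, with 21.2%, separated the antibodies in both cell types. T cell markers were high in every library, with a summed level of 8 genes between 3640 and 4130 CPM in Tregs and between 3190 and 4170 CPM in Tcons.

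The transcriptomes of the 2 fractions differed broadly. By edgeR's quasi-likelihood test with the mouse as a block and Benjamini-Hochberg adjustment, 6189 of 12228 protein-coding genes tested (50.6%) passed an adjusted p of 0.1. Of the genes tested, 3039 (24.9%) were higher in Tregs and 3150 (25.8%) higher in Tcons. The median absolute log2 fold change over all tested genes was 0.17. A log2 fold change of at least 1 along with the same threshold was reached by 550 genes higher in Tregs (4.5%) and by 752 higher in Tcons (6.15%). The median log2 fold change of all genes was -0.01, and for 6956 genes (56.9%) the difference had the same direction in all 4 mice. In the plot of fold change against level, the Treg surface genes lay above 0 at all levels of expression with 1 exception, Ly6a.

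**Figure D1:**
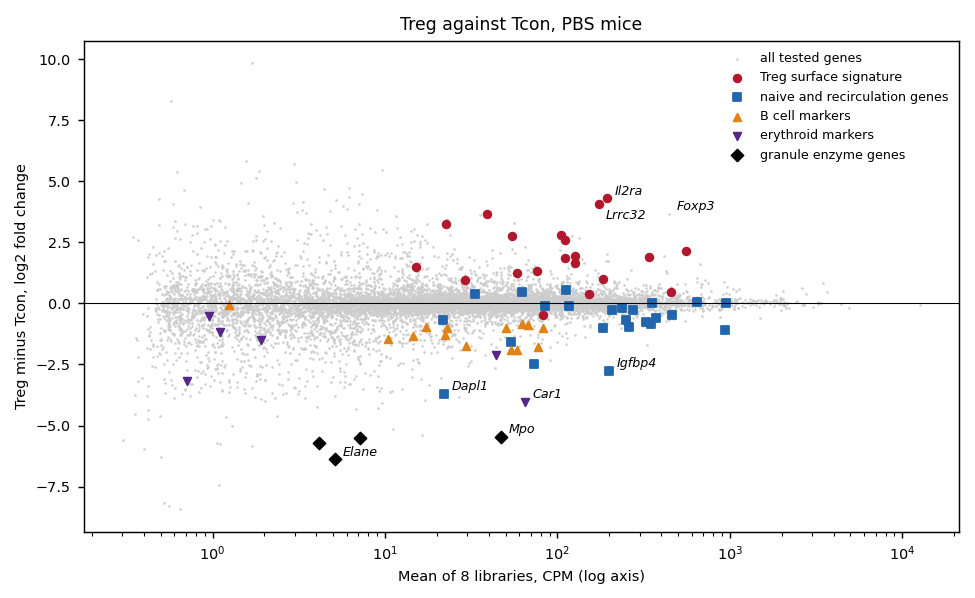
Treg minus Tcon log2 fold change (vertical axis) against the mean CPM of the 8 libraries (horizontal log axis), with 1 grey point for each of the 12228 genes tested and coloured symbols for gene groups named in the legend. Il2ra and Lrrc32 lie at the top of the Treg surface genes, at 4.30 and 4.05, and Elane and Mpo lie far below 0, at -6.38 and -5.47.

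The labelled cell types were checked first. Foxp3 (chrX:7573644-7595245, GRCm38, plus strand), the factor that defines the Treg lineage, was at 768, 779, 902 and 861 CPM in Tregs and at 60.3, 54.6, 68.7 and 77.9 CPM in the Tcons of the same mice. The groups were far apart and did not overlap, and the log2 fold change was 3.67 ± 0.07 (SE, n = 4 pairs, adjusted p = 2.22e-07 by edgeR's quasi-likelihood test). Foxp3 mRNA was thus measured in Tcons as well, at a mean of 65.4 ± 10.2 CPM (SD, n = 4). Bulk libraries do not tell fewer cells of a type from less RNA per cell, and this holds for all levels given here.

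Il2ra (chr2:11642807-11693193), which encodes CD25, was at 354, 382, 394 and 358 CPM in Tregs and at 19.5, 18.9, 19 and 18 CPM in Tcons, a 19.7-fold difference. Since the fractions were separated by this protein, the difference describes the selection and is no finding. Ikzf2 (chr1:69531214-69687245), the gene of the Treg-associated factor Helios, was at 543, 689, 692 and 714 CPM in Tregs and at 174, 153, 169 and 188 CPM in Tcons. It was higher in every Treg library than in any Tcon library, by a log2 fold change of 1.94 ± 0.08 (adjusted p = 4.06e-06).

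The markers chosen for Tcons gave the opposite picture. Dapl1 (chr2:59484653-59505020), a gene known from naive T cells, was at 3.15, 2.41, 3.65 and 3.11 CPM in Tregs and at 31.3, 39.4, 44.7 and 48.1 CPM in Tcons. Igfbp4 (chr11:99041244-99054392), which encodes a binding protein for insulin-like growth factors and is likewise high in naive CD4 T cells, was at 49.7, 56.4, 51.5 and 48.2 CPM in Tregs and at 283, 320, 371 and 418 CPM in Tcons. Both were lower in every Treg library than in any Tcon library, Dapl1 by 13-fold and Igfbp4 by 6.71-fold (log2 fold changes -3.70 ± 0.12 and -2.75 ± 0.11, adjusted p = 1.49e-06 and 2.69e-06). Per transcript length, the mean in Tregs was 216 FPKM for Foxp3, 93.6 for Il2ra and 88.3 for Ikzf2, and the mean in Tcons was 117 FPKM for Igfbp4 and 71.3 for Dapl1.

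**Figure D2:**
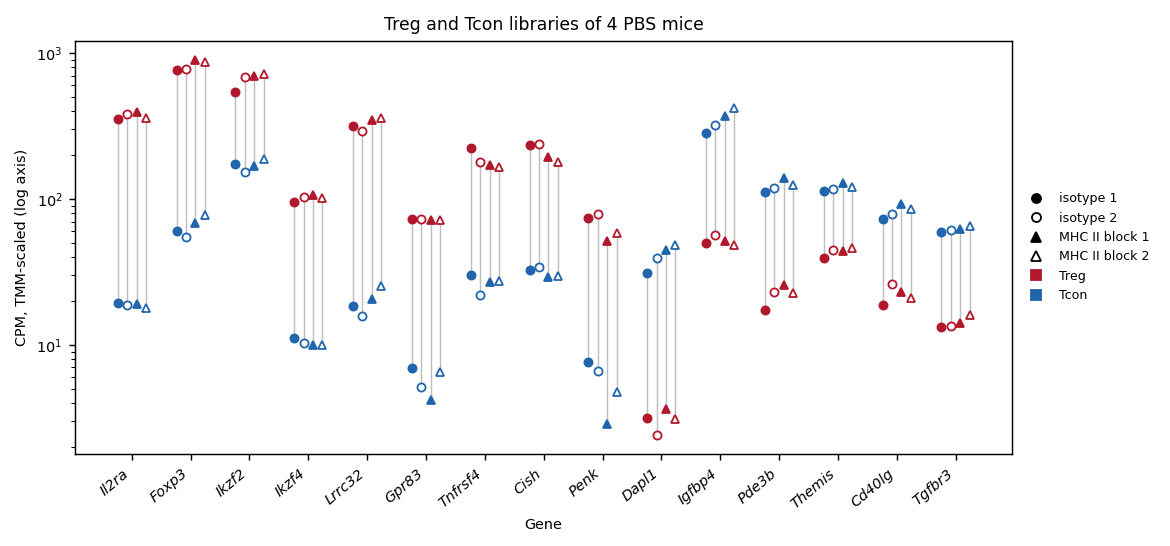
CPM on a log axis of 15 genes in the Treg (red) and Tcon (blue) library of each of the 4 PBS mice, with a grey line that joins the libraries of a mouse; circles are isotype mice, triangles MHC II block mice, filled for mouse 1 and open for mouse 2. For each gene shown, all 4 Treg points lie on 1 side of all 4 Tcon points, as for Foxp3 at 768 to 902 CPM in Tregs and 54.6 to 77.9 CPM in Tcons.

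The 4 other PBS mice, 2 with each antibody, gave a Treg library but no Tcon library and took no part in the fit, so their Tregs can be set beside these values. In those libraries, scaled together with the 8, Foxp3 was at 718 to 804 CPM, Il2ra at 350 to 398, Ikzf2 at 610 to 766, Dapl1 at 1.65 to 3.25 and Igfbp4 at 46.2 to 54.3. For each of the 5 genes, all 4 additional Treg libraries lay outside the range of the Tcon libraries and on the Treg side of it.

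Upstream sequences are shown for Foxp3, the factor of the Treg lineage, for Cish, a Treg-high gene known as a target of STAT5, and for Dapl1 and Igfbp4, the markers of the Tcon fraction. The 250 bases before a transcript start were taken from RefSeq (GRCm38.p6, plus strand, 5′ to 3′), and capitals mark a match to TTCNNNGAA, the palindrome bound by STAT factors, of which STAT5 acts below the IL-2 receptor. RefSeq gives 2 starts for Foxp3, and both windows are shown. The Foxp3 window at chrX:7580233-7580482 holds 1 match, 139 to 131 bases before the start, while the other Foxp3 window (chrX:7579426-7579675) and the windows of Cish (chr9:107296409-107296658), Dapl1 (chr2:59484403-59484652) and Igfbp4 (chr11:99040994-99041243) hold none.
Foxp3, upstream start: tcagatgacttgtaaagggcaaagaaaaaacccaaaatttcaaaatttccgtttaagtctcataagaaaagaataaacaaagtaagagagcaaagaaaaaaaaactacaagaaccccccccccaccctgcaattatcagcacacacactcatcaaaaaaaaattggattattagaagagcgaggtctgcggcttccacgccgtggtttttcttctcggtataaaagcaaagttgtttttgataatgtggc
Foxp3, downstream start: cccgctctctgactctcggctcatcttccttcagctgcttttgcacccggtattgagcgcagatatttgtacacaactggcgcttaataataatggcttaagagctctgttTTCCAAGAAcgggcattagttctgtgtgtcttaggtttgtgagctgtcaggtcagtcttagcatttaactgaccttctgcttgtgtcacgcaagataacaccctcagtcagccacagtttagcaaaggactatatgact
Cish: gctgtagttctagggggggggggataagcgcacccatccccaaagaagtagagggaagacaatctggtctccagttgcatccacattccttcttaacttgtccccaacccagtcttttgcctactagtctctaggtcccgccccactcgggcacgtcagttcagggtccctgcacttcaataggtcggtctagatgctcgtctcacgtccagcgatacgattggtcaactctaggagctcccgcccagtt
Dapl1: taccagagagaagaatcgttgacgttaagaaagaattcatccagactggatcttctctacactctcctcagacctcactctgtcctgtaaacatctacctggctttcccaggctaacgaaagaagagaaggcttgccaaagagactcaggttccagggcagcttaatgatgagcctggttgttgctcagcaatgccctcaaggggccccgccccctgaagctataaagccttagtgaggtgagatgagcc
Igfbp4: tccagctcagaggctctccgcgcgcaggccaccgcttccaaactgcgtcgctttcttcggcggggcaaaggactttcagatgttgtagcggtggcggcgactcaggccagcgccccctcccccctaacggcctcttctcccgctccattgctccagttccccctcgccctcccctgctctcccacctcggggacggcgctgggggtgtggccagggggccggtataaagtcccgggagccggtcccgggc
A match to these letters on either strand, which is the same for a palindrome, was found in 7.02% of all 32851 windows of this length and in 5.98% of the 12388 windows of genes tested. It was found in 6.98% of 559 windows of genes whose level was higher in Tregs, with a log2 fold change of at least 1, and in 5.72% of 752 windows of genes higher in Tcons by as much. Neither CTTTGA, the core of TCF and LEF sites, nor TGTGGT, the core of RUNX sites, occurs in the printed windows on either strand. CTTTGA was in 13.8% of all windows, 10.6% of those of genes tested, 10.7% of those of Treg-high and 11.7% of those of Tcon-high genes. TGTGGT was in 14.0%, 11.2%, 12.3% and 12.9%. These shares are descriptions of the letters in the windows and carry no test.

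Transcription factors of the Treg lineage were divided. Of 21 tested, 10 were higher in Tregs, 6 were higher in Tcons and 5 did not pass, with a median log2 fold change of 0.13. Called in either direction were 76.2% of them, beside 50.6% of all tested genes. Ikzf4, which encodes Eos, a partner of Foxp3, was at 95.5, 103, 107 and 102 CPM in Tregs and at 11.1, 10.3, 9.92 and 9.91 CPM in Tcons. The 8 libraries split cleanly by cell type, with a log2 fold change of 3.30 ± 0.06 (adjusted p = 2.22e-07). Ikzf1, which encodes Ikaros, went the other way within the same gene family, at 385, 423, 415 and 428 CPM in Tregs and at 663, 674, 700 and 712 CPM in Tcons (log2 fold change -0.74 ± 0.04, adjusted p = 1.03e-05). Satb1, a chromatin organizer of T cells, and Runx3, a factor of cytotoxic lineages, were also lower in all 4 Treg libraries, with log2 fold changes of -0.83 ± 0.08 and -0.58 ± 0.05.

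Surface molecules of Tregs were almost all higher in Tregs, with 19 of 20 higher in Tregs, 1 higher in Tcons and a median log2 fold change of 1.86. By comparison, 24.9% of all tested genes were higher in Tregs. The list holds Il2ra, the basis of the selection, and without it 18 of 19 were higher in Tregs, with a median of 1.84. Leaving out isotype mouse 1, whose Treg library carried more B cell transcripts than the other Treg libraries, left 19 and 1. Lrrc32 (chr7:98489283-98502181) encodes GARP, which holds latent TGF-β at the Treg surface. It was at 315, 290, 348 and 361 CPM in Tregs and at 18.6, 15.7, 20.6 and 25.3 CPM in Tcons, a 16.5-fold difference (log2 fold change 4.05 ± 0.07, adjusted p = 2.22e-07). Gpr83, a G protein-coupled receptor known from Tregs, was even across Treg libraries, at 73.2, 72.8, 71.8 and 72 CPM, against 6.89, 5.16, 4.18 and 6.53 CPM in Tcons (log2 fold change 3.68 ± 0.11). The smallest of the differences in favour of Tregs were those of Cd5 and Icos, with log2 fold changes of 0.46 ± 0.04 and 0.40 ± 0.07. The exception, Ly6a, which encodes the antigen Sca-1, was at 71, 63.6, 73.5 and 70.5 CPM in Tregs and at 99.8, 83.6, 108 and 94.1 CPM in Tcons (log2 fold change -0.46 ± 0.04, adjusted p = 0.000163).

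Of 16 intracellular or secreted products listed for Tregs, 13 were higher in Tregs, 2 were higher in Tcons and 1 did not pass, with a median of 0.98. This is a called share of 93.8%, beside 50.6% of all tested genes. Penk, the precursor of enkephalin peptides, was at 73.6, 79.4, 51.1 and 58.6 CPM in Tregs and at 7.69, 6.61, 2.87 and 4.78 CPM in Tcons (log2 fold change 3.62 ± 0.12, adjusted p = 1.90e-06). Both antibody groups showed the difference, although the levels were lower in MHC II block mice in both cell types. Dusp4, a phosphatase of MAP kinases, and Ecm1, an extracellular matrix protein, followed with log2 fold changes of 2.68 ± 0.13 and 2.29 ± 0.10. Ndrg1 gave 0.08 ± 0.07 and did not pass (adjusted p = 0.407). The 2 members that were higher in Tcons were Arhgap29, a GTPase-activating protein, at -2.92 ± 0.15, and Gzmb.

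Granule genes were lower in Tregs although they stand on the list of suppressor molecules. Gzmb (granzyme B) was at 9.04, 8.53, 10.7 and 9.89 CPM in Tregs and at 27.3, 39.4, 23.4 and 20.3 CPM in Tcons (log2 fold change -1.48 ± 0.18, adjusted p = 0.000526). Prf1 (perforin) gave -1.85 ± 0.10, with 5.22 to 6.83 CPM in Tregs and 19.3 to 26.3 CPM in Tcons. The Tcon fraction also carried more of the natural killer and CD8 T cell markers described further on, and the part of these cells in the granule genes was not tested. The remaining suppressor genes were mainly higher in Tregs. Over the list of 20 the counts were 14 higher in Tregs, 3 higher in Tcons and 3 not past the threshold, with a median of 0.84. The share called was 85%, beside 50.6% of all tested genes. Areg (amphiregulin, a growth factor in tissue repair) was at 27.7, 31.7, 19.2 and 22.2 CPM in Tregs against 5.08, 4.77, 3.79 and 3.43 CPM in Tcons (log2 fold change 2.55 ± 0.09). Il12a, the third member higher in Tcons, was near the detection limit, at 0.183 to 1.44 CPM in Tregs and 1.15 to 2.31 CPM in Tcons, and its groups overlapped.

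IL-2 signalling genes were mainly higher in the Tregs of these mice, which were given no IL-2. Beside Il2ra, 12 further members of the list of 16 were higher in Tregs, 2 were higher in Tcons and 1 did not pass, with a median of 0.61 (0.53 without Il2ra). With Il2ra, 93.8% of the list was called, against 50.6% of all tested genes. Cish, a feedback inhibitor that STAT5 induces, was at 234, 236, 195 and 179 CPM in Tregs and at 32.7, 34, 29.3 and 29.8 CPM in Tcons, and its groups were well separated (log2 fold change 2.74 ± 0.05, adjusted p = 2.22e-07). Socs2, another such inhibitor, was at 32, 36.7, 33.6 and 25.7 CPM in Tregs and at 9.3, 9.29, 8.69 and 7.46 CPM in Tcons (log2 fold change 1.88 ± 0.07). The gene of IL-2 itself, Il2, was barely expressed in either fraction, at 0.393 to 0.883 CPM in Tregs and 0.72 to 1.78 CPM in Tcons, with overlapping ranges and a lower value in the Treg library of each mouse (log2 fold change -1.08 ± 0.22, adjusted p = 0.00591). Jak1, a kinase of the receptor, differed by only -0.11 ± 0.04 (adjusted p = 0.0668), and the call was lost when isotype mouse 2 (adjusted p = 0.128) or either MHC II block mouse was left out (0.15 without mouse 1 and 0.118 without mouse 2), and over all alternatives the adjusted p reached 0.238. Dusp6 was not past the threshold (-0.22 ± 0.15, adjusted p = 0.281).

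A further list joined receptors of the TNF superfamily with other costimulatory and inhibitory molecules of T cells. Of its 19 genes, 10 were higher in Tregs, 8 were higher in Tcons and 1 did not pass, with a median of 0.40. Calls thus covered 94.7% of the list, beside 50.6% of all tested genes. Tnfrsf4 (OX40) was at 222, 179, 170 and 165 CPM in Tregs and at 30.2, 21.9, 26.9 and 27.5 CPM in Tcons (log2 fold change 2.79 ± 0.08, adjusted p = 1.00e-06). Tnfrsf9 (4-1BB) was at 197, 188, 191 and 188 CPM against 34.3, 28.4, 30.9 and 33 CPM (2.60 ± 0.05, adjusted p = 2.22e-07). Tnfrsf8 (CD30) had the highest fold change of the list, 2.97 ± 0.14, at a lower level. It was lower in MHC II block than in isotype mice in both fractions, at 30.9, 33.3, 17.6 and 18.6 CPM in Tregs and 5.3, 4.49, 1.78 and 1.9 CPM in Tcons.

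Cd40lg, the ligand by which helper T cells activate B cells, was the member of this list with the lowest fold change. It was at 18.9, 26.3, 23 and 21 CPM in Tregs and at 73.3, 78.7, 92.6 and 85 CPM in Tcons (log2 fold change -1.89 ± 0.08, adjusted p = 3.83e-06), with no overlap. The inhibitory receptors Btla and Cd160 were lower in Tregs by much less, with log2 fold changes of -0.35 ± 0.04 and -0.49 ± 0.08.

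Regulators of effector Tregs gave 10 genes higher in Tregs, 5 higher in Tcons and 5 not past the threshold, out of 20, with a median of 0.30. That made 75% called, beside 50.6% of all tested genes. Nfil3, a factor induced in activated T cells, was at 114, 99.3, 85.2 and 98.6 CPM in Tregs and at 30.5, 22.6, 36.3 and 42.5 CPM in Tcons, with no overlap (log2 fold change 1.61 ± 0.16, adjusted p = 0.000184). Bhlhe40, induced in the same way, gave 1.23 ± 0.11. Zeb2, a factor of terminal effector cells, was lower in Tregs, at 14.2, 9.84, 5.95 and 7.27 CPM against 35.1, 32.9, 22.6 and 21.7 CPM (-1.62 ± 0.10), and Myb gave -1.34 ± 0.08. Vdr, the vitamin D receptor, was even in Tregs, at 3.36 to 4.39 CPM, and uneven in Tcons, at 12.7 and 3.56 CPM in isotype mice and 46.9 and 37.6 CPM in MHC II block mice. Its mean difference (-2.32 ± 0.49, adjusted p = 0.00785) therefore covers very unlike pairs, and its groups overlapped.

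Genes of naive and recirculating T cells were mainly lower in Tregs, with 16 of 24 higher in Tcons, 3 higher in Tregs, 5 not past the threshold and a median of -0.54. Among all tested genes, 25.8% were higher in Tcons and 24.9% higher in Tregs. Without isotype mouse 1 the counts were again 16 and 3. After Dapl1 and Igfbp4, the lowest was Pde3b, a phosphodiesterase of cyclic nucleotides, at 17.4, 23, 25.8 and 22.6 CPM in Tregs and at 111, 118, 139 and 124 CPM in Tcons (log2 fold change -2.48 ± 0.06, adjusted p = 6.10e-07). The exceptions were Itga6 (integrin α6), Art2b (an ADP-ribosyltransferase of T cells) and Ly6c1, which were higher in Tregs, with log2 fold changes of 0.56 ± 0.04, 0.47 ± 0.06 and 0.40 ± 0.06. Klf2, a factor of recirculating cells that is named here after its values were seen, gave 0.02 ± 0.05 and did not pass (adjusted p = 0.742).

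**Figure D3:**
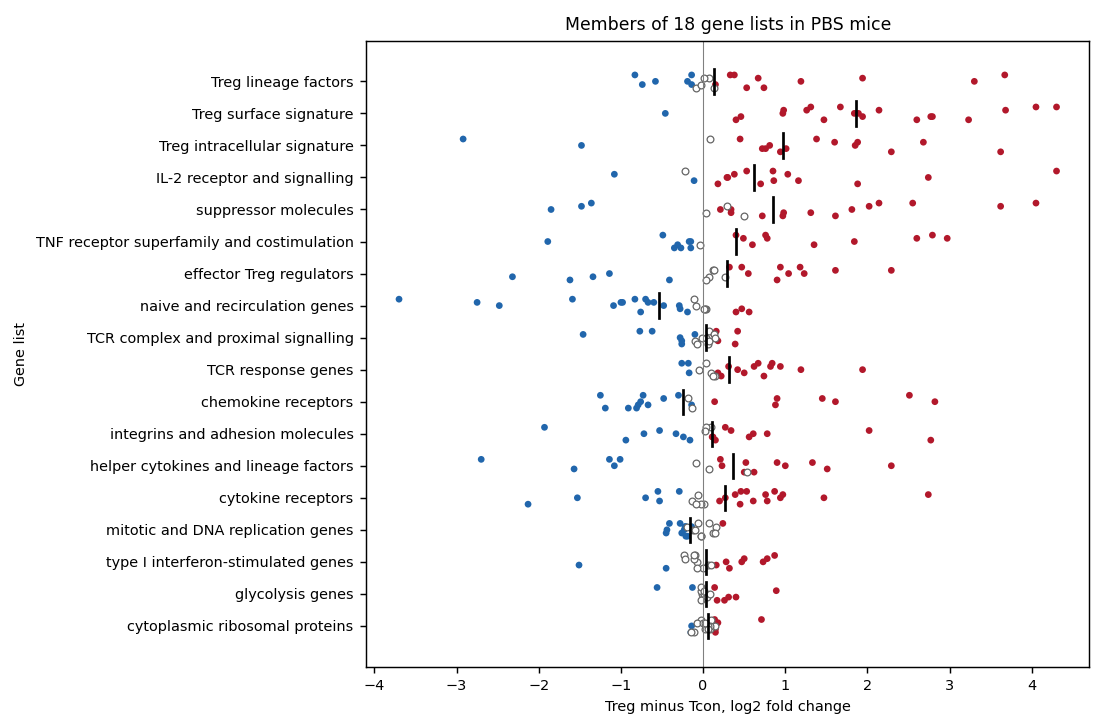
Treg minus Tcon log2 fold change of each tested member of 18 gene lists (rows); filled red and blue points passed the threshold as higher in Tregs or in Tcons, open points did not, and black bars are medians. The Treg surface list has its median at 1.86 and the naive and recirculation list at -0.54, while the medians of glycolysis and ribosomal protein genes are 0.03 and 0.06.

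Of 21 components of the T cell receptor pathway, 5 were higher in Tregs, 7 were higher in Tcons and 9 did not pass, with a median of 0.03. The called share was 57.1%, near the 50.6% of all tested genes. Themis, a signalling protein of thymocytes and T cells, had the lowest fold change, at 39.3, 44.8, 44.2 and 46.4 CPM in Tregs and at 113, 117, 128 and 121 CPM in Tcons (log2 fold change -1.46 ± 0.05, adjusted p = 1.52e-06). The kinase Txk gave -0.77 ± 0.06, and the highest members were Cd6, Lcp2 and Lat, at 0.42 ± 0.04, 0.39 ± 0.06 and 0.18 ± 0.04.

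Early response genes of the receptor were more often higher in Tregs, with 13 of 21 higher in Tregs, 3 higher in Tcons and 5 not past the threshold (median 0.31). Their called share was 76.2%, beside 50.6% of all tested genes. Cd83, an activation antigen, was at 270, 259, 112 and 140 CPM in Tregs and at 104, 82.9, 21.5 and 25.9 CPM in Tcons (log2 fold change 1.94 ± 0.18, adjusted p = 0.000132). The Treg library was higher in each mouse, and both fractions had lower levels in MHC II block mice. Nr4a3, an orphan receptor induced by the T cell receptor, was at 126, 139, 81.5 and 75.8 CPM in Tregs and at 57.7, 54.2, 36.1 and 35.9 CPM in Tcons (1.19 ± 0.06), and Nr4a2 gave 0.94 ± 0.06. Egr1 and Egr3 were slightly lower in Tregs, at -0.17 ± 0.06 and -0.26 ± 0.08, with overlapping groups. Egr1 was not past the threshold without isotype mouse 2 (adjusted p = 0.173) or without MHC II block mouse 1 (0.259), and Egr3 was not without either isotype mouse (0.132 without mouse 1 and 0.14 without mouse 2). Over all alternatives the adjusted p reached 0.595 for Egr1 and 0.345 for Egr3.

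Receptors that guide migration were split. Among 20 chemokine and related receptors, 7 were higher in Tregs, 11 were higher in Tcons and 2 did not pass, with a median of -0.24. In all, 90% were called, beside 50.6% of all tested genes. Ccr8, known from activated tissue Tregs, was at 52.7, 46.2, 33.7 and 34.2 CPM in Tregs and at 7.41, 5.86, 5.12 and 5.09 CPM in Tcons (log2 fold change 2.82 ± 0.07, adjusted p = 4.37e-07). Ccr6, a receptor of mucosal homing, was at 26.3, 31.2, 23.5 and 25.9 CPM against 7.51, 6.76, 3.05 and 2.62 CPM (2.51 ± 0.23). Ccr1 and Cx3cr1, receptors of inflammatory and effector cells, were lower in Tregs, with log2 fold changes of -1.25 ± 0.21 and -1.19 ± 0.18. Ccr1 was low in both fractions, between 0.229 and 6.17 CPM.

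Of 20 integrins and adhesion molecules, 10 were higher in Tregs, 7 were higher in Tcons and 3 did not pass (median 0.10). Either way, 85% were called, beside 50.6% of all tested genes. Itgae, the CD103 chain that binds E-cadherin, was at 90.4, 93, 93.8 and 104 CPM in Tregs and at 14.5, 16.2, 11.8 and 13.4 CPM in Tcons (log2 fold change 2.77 ± 0.09, adjusted p = 1.44e-06). Itgb8, the integrin chain that activates latent TGF-β, was at 32.7, 37.9, 40.9 and 45 CPM against 12.1, 7.64, 8.59 and 10.4 CPM (2.02 ± 0.14). Itga1, Itgb3 and Itgb1 were lower in Tregs, at -1.93 ± 0.19, -0.94 ± 0.07 and -0.72 ± 0.07.

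Cytokines and lineage factors of helper T cells gave 10 of 18 higher in Tregs, 5 higher in Tcons and 3 not past the threshold (median 0.36). Calls made up 83.3%, beside 50.6% of all tested genes. Il21, a product of follicular helper cells, was at 3.09, 2.41, 3.54 and 4.03 CPM in Tregs and at 11, 5.75, 47.9 and 37.6 CPM in Tcons (log2 fold change -2.70 ± 0.37, adjusted p = 0.000986). All Tcon libraries were above all Treg libraries, and the Tcons of MHC II block mice were several times above those of isotype mice. Il4 and the type 1 factor Tbx21 were lower in Tregs as well, at -1.57 ± 0.21 and -1.14 ± 0.06. Lta (lymphotoxin α) was higher in Tregs, at 53.6, 56.6, 51.7 and 46.5 CPM against 16.8, 16.2, 20.9 and 19.5 CPM (1.51 ± 0.10). Il22 was at or below 0.884 CPM in all 8 libraries.

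Of 25 cytokine receptor genes, 14 were higher in Tregs, 6 were higher in Tcons and 5 did not pass (median 0.27). A share of 80% was called, beside 50.6% of all tested genes. Il1r2, a decoy receptor for IL-1, was at 41.6, 25.7, 18.4 and 26.9 CPM in Tregs and at 8.42, 4.46, 1.91 and 3.24 CPM in Tcons (log2 fold change 2.74 ± 0.16, adjusted p = 1.49e-05). Il1rl1, the receptor for IL-33, gave 1.47 ± 0.07 and Il12rb1 gave 0.97 ± 0.05. Tgfbr3, the TGF-β coreceptor betaglycan, was at 13.2, 13.4, 14.2 and 16.1 CPM in Tregs and at 59.1, 61.7, 62.6 and 65.6 CPM in Tcons (-2.13 ± 0.05, adjusted p = 4.37e-07). Il12rb2, which confers response to IL-12, was lower in Tregs by -1.53 ± 0.15, in the opposite direction to the chain it pairs with, and Il7r, the receptor for IL-7, by -0.70 ± 0.09.

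Of the cell cycle, glycolysis and ribosomal protein lists, 54.5%, 50% and 35% of the members were called, beside 50.6% of all tested genes. Of 22 mitotic and replication genes, 1 was higher in Tregs (Tyms, 0.24 ± 0.06, not past the threshold in the fit of all 16 mice, adjusted p = 0.214), 11 were higher in Tcons and 10 did not pass, with fold changes between -0.45 and 0.24. Among those higher in Tcons were Ccnb2 at -0.45 ± 0.07, Ccnb1 at -0.44 ± 0.08 and Bub1 at -0.41 ± 0.09, and Pcna did not pass (0.14 ± 0.06, adjusted p = 0.104). Glycolysis genes gave 6 of 16 higher in Tregs, 2 higher in Tcons and 8 not past the threshold. Slc2a3, a glucose transporter, was the highest, at 127, 142, 147 and 145 CPM in Tregs against 83.3, 80.5, 69.5 and 70.8 CPM in Tcons (0.89 ± 0.08), and Pdk1, which restrains pyruvate oxidation, was the lowest at -0.56 ± 0.04. Ribosomal protein genes gave 5 of 20 higher in Tregs, 2 higher in Tcons and 13 not past the threshold, but the direction of this list was not stable, as it gave 3 and 5 without isotype mouse 1.

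Interferon-stimulated genes gave 8 of 20 higher in Tregs, 2 higher in Tcons and 10 not past the threshold (median 0.03), a called share of 50% beside 50.6% of all tested genes. Isg15, a ubiquitin-like protein, was at 34.7, 36.3, 76.9 and 70.4 CPM in Tregs and at 19, 15.5, 45.4 and 44.2 CPM in Tcons (log2 fold change 0.87 ± 0.09, adjusted p = 0.000203). It was higher in the Treg library of each mouse, and in both fractions the MHC II block mice lay above the isotype mice, so the groups overlapped. Oas2, an antiviral oligoadenylate synthetase, went against the list, at 13.7, 7.33, 15 and 11.1 CPM in Tregs and at 38.7, 26.7, 35.5 and 31.2 CPM in Tcons (-1.51 ± 0.10, adjusted p = 2.38e-05).

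Beyond the lists, the genes with the highest fold changes at a mean of at least 5 CPM and the same direction in 4 mice included several that stood on none of these lists. Dnah7a (chr1:53397006-53706784), an axonemal dynein heavy chain, was at 23.3, 26.1, 13.6 and 11.9 CPM in Tregs and at 0.402, 0.568, 0.235 and 0.456 CPM in Tcons (log2 fold change 5.45 ± 0.18, adjusted p = 1.71e-06). Gbp2b, an interferon-inducible GTPase, was at 10.9, 13.9, 15.8 and 15.7 CPM against 0.704, 0.671, 0.757 and 0.384 CPM (4.48 ± 0.20). Fam184b gave 4.22 ± 0.24, and Ryr2, a calcium release channel of heart muscle, gave 3.98 ± 0.29 with 9.42 to 12.8 CPM in Tregs and 0.313 to 1.41 CPM in Tcons.

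Gm3373, Gm3500, Gm3752 and Gm8281, with log2 fold changes of 4.71 ± 0.46, 4.37 ± 0.24, 4.08 ± 0.27 and 3.86 ± 0.17, also belonged to this group. They lie in a cluster of predicted genes on chromosome 14. These predicted genes are similar in sequence, so reads may be divided among them, and the values of single members are uncertain.

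Under the same limits, a mean of at least 5 CPM and 1 direction in 4 mice, the lowest fold changes included those of genes that T cells are not known for. Elane, Mpo and Prtn3, granule enzymes of myeloid precursors, had log2 fold changes of -6.38 ± 0.30, -5.47 ± 0.11 and -5.52 ± 0.16. Mpo was at 0.383, 0.803, 3.91 and 3.47 CPM in Tregs and at 30, 29.9, 162 and 147 CPM in Tcons. Elane was at 0.0294, 0, 0.365 and 0.0983 CPM in Tregs, where the 4 libraries together held 14 counts, and at 5.23, 3.48, 16.8 and 15 CPM in Tcons. For both genes the groups did not overlap, and MHC II block mice had several times the level of isotype mice in Tcons. Ctsg (cathepsin G), added after its values were seen, was at 2.66 to 14.4 CPM in Tcons and at most 0.329 CPM in Tregs.

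Genes of red cell precursors showed the same contrast. Car1, a carbonic anhydrase of erythroid cells, was at 2.41, 2.36, 11.6 and 18.2 CPM in Tregs and at 93, 123, 123 and 147 CPM in Tcons (log2 fold change -4.02 ± 0.40, adjusted p = 0.000206). Gata2, a factor of early blood progenitors, was at 0.265, 0.402, 0.84 and 0.917 CPM in Tregs and at 14.9, 24.4, 24.9 and 22.1 CPM in Tcons (-5.13 ± 0.19, adjusted p = 2.36e-06). Tal1, a factor of the same progenitors, gave -4.06 ± 0.38. Of 15 genes of erythroid precursors put together after their values were seen, Klf1, Epor, Gfi1b, Tfr2, Rhag, Rhd, Kel, Ermap, Mfsd2b and Aqp1 among them, 14 were lower in the Treg library of all 4 mice, and their choice allows no test. The exception was Gata1, at 17.6, 16.8, 20.7 and 17.5 CPM in Tregs and 11.4, 12.6, 13.9 and 17.4 CPM in Tcons. The sum of the 15 was 27.6, 25.3, 53.3 and 69.9 CPM in Tregs and 263, 323, 350 and 433 CPM in Tcons. Haemoglobin genes were near 0 in both fractions, with Hba-a1 at 0.256 to 1.56 CPM in Tregs and 1.57 to 4.7 CPM in Tcons.

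In the 4 additional PBS Treg libraries, Mpo was at 0.332, 2.64, 3.74 and 0.836 CPM and Elane at no more than 0.495 CPM, again below every Tcon library. Car1 reached 46.5 and 31.5 CPM in the additional MHC II block mice and 1.58 and 7.37 CPM in the additional isotype mice, still below the lowest Tcon library at 92.7 CPM on that scale. Pdlim4, Muc13, Igfbp5 and Ces2g completed the 10 lowest named genes, with log2 fold changes of -5.40 ± 0.11, -4.30 ± 0.21, -4.32 ± 0.46 and -3.96 ± 0.26.

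Markers of other cell types differed between the fractions. B cell markers summed to 1000, 222, 99.5 and 117 CPM over 14 genes in Tregs and to 1450, 1260, 215 and 202 CPM in Tcons. The Treg library of isotype mouse 1 stood apart from the other Tregs, and the Tcons of both isotype mice stood above those of the MHC II block mice. Of the 14, 12 were higher in Tcons and 2 did not pass, with a median log2 fold change of -1.17, while 25.8% of all tested genes were higher in Tcons. Tregs and Tcons overlapped for each of the 14, whereas they did not overlap for 4631 of the 12228 genes tested. None of the 14 was at 0 in any library. Without the mouse as a block, 0 of the 14 passed. In the additional Treg libraries the B cell sum was 170 and 203 CPM in isotype and 209 and 147 CPM in MHC II block mice, with no separation of the antibodies.

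MHC class II genes followed the B cell markers, with sums of 2820, 1110, 486 and 612 CPM in Tregs and 3970, 3190, 657 and 649 CPM in Tcons. Of these 9 genes, 7 were higher in Tcons and 2 did not pass, and the fractions overlapped for each of the 9. Among all tested genes 25.8% were higher in Tcons. In the additional Treg libraries the sum was 890 and 941 CPM in isotype and 921 and 727 CPM in MHC II block mice. The latter values lay above the Tcon sums of the paired MHC II block mice. Of 8 plasma cell markers, 4 were higher in Tregs, 1 was higher in Tcons and 3 did not pass, with a median log2 fold change of 0.26. The share called was 62.5%, beside 50.6% of all tested genes, and the fractions overlapped for each of the 8 markers. Their sums were 2290, 2240, 875 and 1890 CPM in Tregs and 1630, 1190, 938 and 1310 CPM in Tcons, lower in Tregs in MHC II block mouse 1. In the additional Treg libraries the plasma cell sum was 2130 and 1900 CPM in isotype and 2300 and 1900 CPM in MHC II block mice, above every Tcon library. Jchain, the joining chain of secreted antibodies, was at 1740, 1790, 566 and 1500 CPM in Tregs and at 1110, 771, 610 and 978 CPM in Tcons, higher in Tregs in 3 of the 4 mice (0.59 ± 0.18, adjusted p = 0.0325), with overlapping groups. The call was lost without isotype mouse 2 (adjusted p = 0.104), in the fit of all 16 mice (0.266) and without the mouse as a block (0.142).

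Natural killer markers summed to 51.4 to 81.4 CPM in Tregs and 98.7 to 227 CPM in Tcons, and 6 of 8 were higher in Tcons. CD8 T cell markers summed to 29.3 to 38.3 CPM and 62.4 to 98 CPM, with 5 of 6 higher in Tcons. Eomes, which both of these cell types use, was at 10.4 to 11.2 CPM in Tregs and at 26.9 to 34.5 CPM in Tcons (-1.49 ± 0.07, adjusted p = 4.61e-06). Cd8b1, which encodes a chain of CD8, was the 1 member of the CD8 list that did not pass (-0.06 ± 0.15). Monocyte and macrophage markers summed to 33.3 to 159 CPM in Tregs and 101 to 217 CPM in Tcons, dendritic cell markers to 88.7 to 131 and 101 to 245 CPM, neutrophil markers to 6.85 to 55.2 and 15.4 to 58.5 CPM, and erythroid markers to 19.5 to 43.6 and 167 to 254 CPM. In these 4 lists, 5 of 8, 7 of 10, 4 of 5 and 5 of 6 tested genes were higher in Tcons, and 1, 1, 0 and 0 were higher in Tregs. For all counts of this paragraph, the shares of all tested genes were 25.8% higher in Tcons and 24.9% higher in Tregs.

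**Figure D4:**
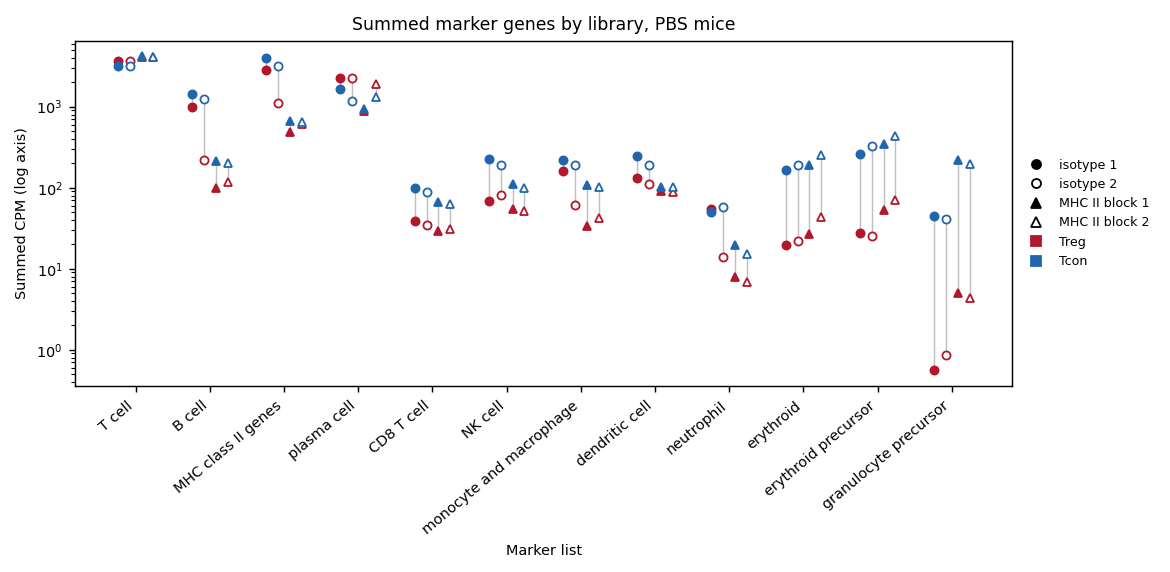
Summed CPM (log axis) of 10 marker lists and 2 further sets in the Treg (red) and Tcon (blue) library of each PBS mouse, joined by a grey line; circles are isotype mice, triangles MHC II block mice, filled for mouse 1 and open for mouse 2, and the last 2 sets were put together after their values were seen. The T cell sum varies little, between 3190 and 4170 CPM, while the B cell sum of Tregs ranges from 99.5 CPM to 1000 CPM in isotype mouse 1.

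How much these cells add to the differences between the fractions was not tested. Without isotype mouse 1, 5576 of the 11863 genes then tested passed the threshold, of which 2738 were higher in Tregs and 2838 higher in Tcons, and of the 6189 genes 5114 were called again in the same direction. The B cell list then gave 12 of 12 tested genes higher in Tcons.

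Whether the Treg-Tcon difference itself depended on the antibody was tested as an interaction, with 2 pairs in each arm. Of the genes tested, 557 passed (4.56%), 365 with a more positive Treg-Tcon difference under MHC II block and 192 with a more negative one. With 1 mouse left out, its arm holds 1 pair, which is assumed to vary like the 2 pairs of the other antibody, so the spread comes from that antibody alone. The count was then 34 without MHC II block mouse 2, 76 without MHC II block mouse 1, 2236 without isotype mouse 1 and 3532 without isotype mouse 2. Among the 5 markers only Igfbp4 passed, with a difference of -2.51 in isotype and -2.98 in MHC II block mice (interaction -0.48 ± 0.09, adjusted p = 0.0534). Among genes past the threshold with a mean of at least 5 CPM, Vdr and Il21 were among those with the lowest values, at -2.32 ± 0.41 and -1.87 ± 0.25, and both had high Tcon levels in MHC II block mice. Padi4, Sostdc1 and Dsp gave -2.15 ± 0.37, -2.47 ± 0.39 and -2.16 ± 0.23, and the 5 highest values under the same limits were 2.95 ± 0.47 for Gm3373, 2.43 ± 0.26 for Gzma, 2.41 ± 0.38 for Ncr1, 2.26 ± 0.18 for Car1 and 2.26 ± 0.47 for Tal1. Several of these calls were lost under an alternative. The adjusted p of Gm3373 was 0.143 without MHC II block mouse 1 and 0.103 without MHC II block mouse 2, and its Tcon level in these mice was 0.0522 and 0.144 CPM. That of Vdr was 0.134 and 0.144 without the same mice, and that of Ncr1 was 0.223 and that of Tal1 0.294 without MHC II block mouse 2. Padi4 gave 0.137 without isotype mouse 1 and 0.113 without MHC II block mouse 1. In the fit of all 16 mice Padi4 gave 0.192 and Tal1 0.117. Without the mouse as a block the adjusted p was 0.167 for Vdr, 0.156 for Gzma, 0.216 for Padi4, 0.114 for Sostdc1 and 0.113 for Tal1. Gzma and Ncr1 are genes of natural killer cells, whose marker sum in Tcons was 227 and 192 CPM in isotype and 111 and 98.7 CPM in MHC II block mice. Both genes are members of that list, so the sum holds their own values. The part of natural killer cells in these interactions was not tested.

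A further comparison set the 4 PBS pairs beside the 12 pairs of mice that received 25 µg of IL-2 on day 0, 4 with WT IL-2 and 4 with each of the IL-2 muteins H16R and 3x. As in the PBS mice, 2 of each 4 had the isotype control and 2 the MHC II blocking antibody. In 1 fit of 32 libraries and 12844 genes, the Treg-Tcon difference was more positive in PBS mice for 2661 genes (20.7%) and more negative for 3024 (23.5%), against the mean of the IL-2 groups. Foxp3, Ikzf2 and Dapl1 did not pass, with Treg-Tcon log2 differences for PBS, WT IL-2, H16R and 3x of 3.67, 3.35, 3.36 and 3.52 for Foxp3, 1.94, 2.15, 2.23 and 2.62 for Ikzf2 and -3.71, -3.69, -3.86 and -3.95 for Dapl1. The PBS minus IL-2 contrasts were 0.26 ± 0.18, -0.39 ± 0.20 and 0.12 ± 0.15, and a p above the threshold does not show that the groups were alike.

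The Treg-Tcon difference of Il2ra, by whose protein the cells of each group were selected, was 4.30 in PBS mice against 3.14, 3.06 and 3.93, and is given as a description. Igfbp4 was less reduced in the Tregs of PBS mice, at -2.75 against -3.42, -3.86 and -3.03 (0.69 ± 0.20, adjusted p = 0.0177). Gzmb had the smallest adjusted p of this contrast among the named genes, going from -1.48 in PBS mice to 0.80, 1.98 and 2.71 after IL-2 (-3.31 ± 0.22, adjusted p = 9.26e-07). Granzyme B mRNA was thus lower in Tregs than in Tcons in PBS mice and higher in Tregs in each IL-2 group. Gpr83 and Lrrc32 had larger differences in PBS mice, at 3.68 and 4.04 (contrasts 0.99 ± 0.20 and 0.83 ± 0.23), while Tnfrsf9 had a smaller one (-0.74 ± 0.15), as did Ctla4 and Il10, added after their values were seen (-0.68 ± 0.21 and -1.25 ± 0.22). Suppressor genes as a list had 12 of 20 members with a more negative and 2 with a more positive difference in PBS mice, and all 20 ribosomal protein genes had a more positive one, with a median of 0.34.

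**Figure D5:**
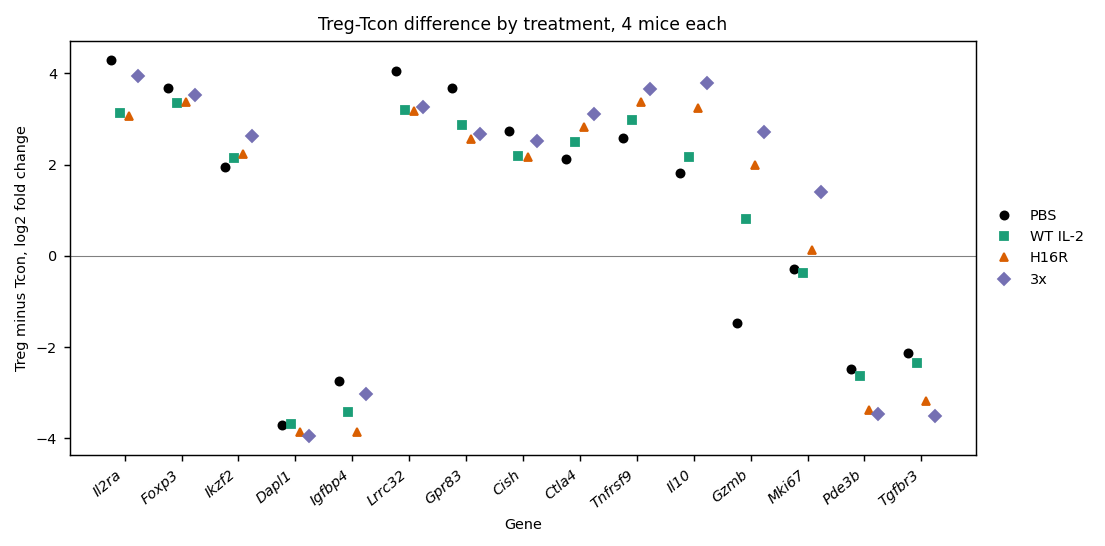
Treg minus Tcon log2 fold change (vertical axis) of 15 genes in PBS mice (black circles) and in mice given WT IL-2, H16R or 3x (4 mice each), from 1 fit of 32 libraries. Foxp3 stays between 3.35 and 3.67 in the 4 groups, whereas Gzmb goes from -1.48 in PBS mice to 2.71 in 3x mice; Ctla4, Il10 and Mki67 were added after their values were seen.

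Other genes with large shifts were Gcg (-3.37 ± 0.31), Padi4 (-3.11 ± 0.50), Vdr (-2.64 ± 0.45) and Amotl1 (-2.62 ± 0.45) on the more negative side. Gcg and Amotl1 were low in the 8 PBS libraries, with means of 1.2 and 0.588 CPM. They met the mean of at least 5 CPM only over the 32 libraries. On the more positive side were Prg2 (3.12 ± 0.29), Prtn3 (2.28 ± 0.55) and the neutrophil genes S100a8 (3.16 ± 1.03), S100a9 (3.09 ± 1.04) and Ngp (2.91 ± 0.96). The last 3 had large errors and were not past the threshold without isotype mouse 1 (adjusted p = 0.488, 0.412 and 0.366). The Treg library of that mouse held 8.39, 19.5 and 3.91 CPM of them, above 1, 2.96 and 0.652 CPM in the next highest Treg library of the PBS pairs.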

How the data were processed

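RNA from CD25-selected Tregs and the CD25-negative flow-through was made into stranded polyA libraries by the authors, who aligned reads with the OSA aligner to mouse genome B38 and quantified genes with the Omicsoft implementation of RSEM. The deposited expected counts are not normalized, and the deposited FPKM values are scaled per transcript length and library size by the authors. Deposited tables of the authors' own Treg comparisons were not used. Expected counts were rounded, matched to GENCODE vM21 (51519 of 53345 genes, 96.6%), and restricted to protein-coding genes with CPM above 0.5 in at least 4 libraries. edgeR 4.0.16 (R 4.3.3) was fitted with TMM scaling, the mouse as a block and the quasi-likelihood test. P-values were adjusted by Benjamini-Hochberg over the genes tested, at a threshold of 0.1, which was the filter and threshold of the study. SE is the absolute log2 fold change divided by the square root of F, and errors and p-values measure the spread between 4 mice.

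Both libraries of a pair carry the same mouse in the labels. Deviations from the mean of each cell type, taken over both antibodies, correlated at 0.36 to 0.62 within every pair. The libraries of a pair also share the antibody, so this correlation cannot tell the mouse from the antibody. The interactions used 2 pairs per antibody, and 4 PBS against 12 IL-2 pairs. DESeq2 1.42.0, limma 3.58.1 on log2(FPKM + 1), other scalings, filters and sets of mice were alternatives, and the script was tested on simulated data. Precision at low levels is limited by depth, as 1 CPM was 20.2 counts in the smallest library. Members and gene lists were chosen with earlier results of these data known. Genes were named by rule: the 5 markers, up to 3 highest and 3 lowest members of each list, the 10 highest and 10 lowest fold changes with a mean of at least 5 CPM and 1 direction in 4 mice, and the 5 highest and 5 lowest past the threshold of each interaction, with a mean of at least 5 CPM. A choice among these is described, and genes from outside are said to be so. Libraries of the same group differed by more than counting noise (chi-square per gene 4.29 to 14.72), and none were merged. Some genes are not reported here.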

Additional observations from a re-analysis of the deposited data

Results flagged for a closer look

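Among 119 genes named in the report, 7 had a mouse whose Treg-Tcon log2 difference stood far from those of the other 3 mice, and chance alone places about 1 in 20 groups there. In isotype mouse 1 these were Art2b (0.29), Bub1 (-0.16), Cd160 (-0.78), Gm3752 (3.03) and Myb (-1.01), and in isotype mouse 2 Cd40lg (-1.58) and Pdlim4 (-5.83).

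The Treg-Tcon difference of 27 named genes differed between the antibodies by the interaction test, with 2 pairs in each arm, and the report gives the calls of the most extreme values that were lost under an alternative. Among all 12228 genes tested, 557 passed (4.56%). The 27 include the 5 highest and 5 lowest values of this same test, so their number is no measure of how often named genes differed. The difference was more positive under MHC II block for Gm3373 (2.95), Gzma (2.43), Ncr1 (2.41), Car1 (2.26), Tal1 (2.26), Ces2g (1.45), Ccr6 (1.12), Cd83 (0.90), Gzmb (0.80), Il1r2 (0.74), Cd8b1 (0.69), Itgae (0.39), Egr3 (0.37), Satb1 (0.36) and Slc2a3 (0.34). It was more negative for Sostdc1 (-2.47), Vdr (-2.32), Dsp (-2.16), Padi4 (-2.15), Il21 (-1.87), Nfil3 (-0.79), Dusp6 (-0.77), Prg2 (-0.75), Bhlhe40 (-0.54), Igfbp4 (-0.48), Lta (-0.45) and Tnfrsf4 (-0.33).

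For the PBS minus IL-2 contrast, only the 5 markers and the genes with the most extreme contrasts were screened in this way. They were Prg2 (3.12), S100a8 (3.16), S100a9 (3.09), Ngp (2.91), Prtn3 (2.28), Il2ra (0.92) and Igfbp4 (0.69) on the positive side and Gcg (-3.37), Gzmb (-3.31), Padi4 (-3.11), Vdr (-2.64) and Amotl1 (-2.62) on the negative side. Gcg and Amotl1 were low in the PBS libraries. Since the fractions were separated by CD25, the value of Il2ra describes the selection in each group and is no finding.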

How the results depend on the processing

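The number of genes called between Tregs and Tcons ran from 4650 with the isotype mice alone to 6704 with the MHC II block mice alone, and in each alternative for which shared calls were counted, none of the 6189 genes was called in the opposite direction. Leaving out 1 mouse gave 4722 to 5576 calls, DESeq2 gave 5282, and adding a log2 fold change of at least 1 gave 1302. Without the replicate block 5613 genes were called, and the B cell and MHC II markers then gave 0 of 14 and 0 of 9 calls. The antibody interaction was called for 304 genes by DESeq2, 189 in the fit of all 16 mice, 227 with no replicate block and 34 to 3532 with 1 mouse left out. The PBS against IL-2 contrast gave 3433 calls with the isotype mice alone, 4378 to 4995 with 1 PBS mouse left out, 5579 with no replicate block, and 6608 without the WT IL-2 mice, an alternative chosen after seeing the data.

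Some named genes with small or uneven differences changed sign. In the MHC II block mice alone these were Cd8b1 (0.29), Gzma (0.37) and Klf2 (-0.02), with S100a9 at -0.03 in the PBS against IL-2 contrast. In the isotype mice alone they were Dsp (0.38), Dusp6 (0.17) and Ncr1 (-0.87). With 1 mouse left out, the range was -0.19 to 0.07 for Cd8b1, -0.02 to 0.05 for Klf2 and -0.35 to 0.75 for Ncr1. Ncr1 gave -0.34 with no replicate block, and Klf2 gave -0.01 with total counts and in both limma fits. The cause was not tested.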
